A study of Homo sapiens with 12 samples.

Results

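The killer cell lectin-like receptor (KLR) genes KLRB1, KLRC1, KLRC2, KLRC3, KLRC4, KLRD1, KLRF1, KLRG1 and KLRK1 were followed in RNA-seq. The study describes the cells as the NK cell line YT. The KLR genes were chosen by symbol, and all 9 were found among the 17589 genes of the gene table. The transcript table held 34 transcripts of these genes among 90572. The YT cells, which carry no CD16a of their own, were transduced with lentivirus encoding eGFP alone (CTRL), a non-cleavable high-affinity CD16 (hnCD16), or a fusion receptor (FR). FR1 joined the extracellular and transmembrane parts of hnCD16 to signaling domains of 2B4, DAP10 and CD3ζ. FR2 joined the same parts to the domains of DAP10 and CD3ζ and lacked 2B4. The hnCD16 construct kept the native cytoplasmic tail of CD16a, which the fusion receptors did not have. The eGFP-positive cells were sorted and expanded, and RNA was taken from unstimulated cells. Each of the 4 groups had 3 libraries, 12 in all. The sources do not say whether the 3 libraries of a group came from separate cultures, so the p-values measure only the spread between these libraries.

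KLR genes encode C-type lectin-like receptors of NK cells and some T cells, and most lie together in the NK gene complex on chromosome 12. CD94 (KLRD1) pairs with an NKG2 chain to form receptors for HLA-E. With NKG2A (KLRC1), whose tail recruits phosphatases, the pair is inhibitory, while NKG2C (KLRC2) and NKG2E (KLRC3) use the activating adaptor DAP12. NKG2D (KLRK1) forms a homodimer that signals through DAP10 and binds MICA, MICB and the ULBP proteins. KLRG1 is an inhibitory receptor for cadherins, NKR-P1A (KLRB1, also named CD161) binds the lectin LLT1 encoded by CLEC2D, and NKp80 (KLRF1) binds AICL encoded by CLEC2B.

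The libraries held 17714566 to 18729019 counts, with 15109 to 15417 genes detected in each. FCGR3A, the gene of CD16a, was at 0 counts in CTRL. The hnCD16 libraries held 453 to 480 of its counts, the FR1 libraries 559 to 567 and the FR2 libraries 1012 to 1132. The 12 libraries did not fall together as 1 cell line. The 12 NK markers summed to 99.9 to 107 TPM (reads scaled by transcript length and library total) in the libraries labelled CTRL and 89.2 to 96.6 in those labelled hnCD16, against 2657.6 to 2799.6 in FR1 and 2572.3 to 2678.8 in FR2, where CD2 was at 0. The 12 NK markers include CD244, the 2B4 gene, and FR1 carries 2B4 sequence. RNA of the construct and of the cell cannot be told apart for CD244 in FR1. The 8 T cell markers summed to 1531 to 1756 TPM in CTRL and 1691 to 1753 in hnCD16. In FR1 they summed to 78.4 to 80.4 TPM and in FR2 to 92.0 to 99.9. NCR1 (NKp46), an NK-defining receptor, had 7 counts over the 3 CTRL libraries and 2 over the hnCD16 libraries, against 1358 in FR1 and 1503 in FR2. CD3D, a subunit of the T cell receptor complex, averaged 1321 TPM in CTRL and 1409 in hnCD16, against 0.150 in FR1 and 0.247 in FR2. The 4 B cell markers found summed to 15.4 to 24.9 TPM in CTRL and hnCD16 and 8.10 to 10.2 in FR1 and FR2, with CD79B at 0 in FR2. The 5 myeloid markers summed to 2.64 to 5.85 TPM over all libraries, with MPO at 0 in both FR groups. In FR1 against hnCD16, 9 of 11 tested NK markers were called higher and 2 lower (CD7 and NCR3), 7 of 8 T cell markers lower and 1 higher (CD28), 2 of 3 B cell markers lower and 1 higher (PAX5), and 1 of 2 myeloid markers higher (CSF1R). All 6 of the listed Y-linked genes tested were called higher in each FR group than in CTRL or hnCD16. With genes at 0 set at a floor of 3 counts over a group, their median log2 fold changes were large. Against hnCD16 the medians were 8.98 in FR1 and 8.63 in FR2, and against CTRL 9.07 and 8.72. A Y-linked gene at 0 counts in a group passed the filter only through other groups. The number called thus follows in part from the filter and is given as a description. Over these FR comparisons, 18.3% to 19.6% of all genes tested were called higher and 19.6% to 19.8% lower. In hnCD16 against CTRL and in FR1 against FR2, 0 of the 6 Y-linked genes were called, beside 0.527% and 1.93% of all genes. Differences in the markers and in the KLR genes therefore moved together, and the part of the first in the second was not tested. The FR libraries all lay on one side of these differences and the CTRL and hnCD16 libraries on the other. In comparisons between these sides, the receptor and the kind of cell cannot be told apart. In bulk RNA, fewer cells of a type and less RNA per cell cannot be told apart.

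Promoter windows from RefSeq (GRCh38.p14), each 250 bases before to 50 bases after a transcript start, were found for 5 of the 9 genes, in 8 windows on chromosome 12. They are shown because KLRC1, KLRC3 and KLRC4 moved together and KLRG1 moved the other way. Capitals mark matches, on either strand, to a T-box motif (GGTGTG), an ETS motif (AGGAAG) or an AP-1 motif (TGANTCA); a RUNX motif (TGTGGT), which can overlap the T-box motif in the same letters, was also searched. Of 35116 promoter windows of the same length, 16.8% held the T-box motif, 33.6% the ETS motif, 7.71% the AP-1 motif and 13.1% the RUNX motif. Sequences run 5′ to 3′ along the gene's strand.
KLRC1, window at chr12:10454636-10454935, minus strand: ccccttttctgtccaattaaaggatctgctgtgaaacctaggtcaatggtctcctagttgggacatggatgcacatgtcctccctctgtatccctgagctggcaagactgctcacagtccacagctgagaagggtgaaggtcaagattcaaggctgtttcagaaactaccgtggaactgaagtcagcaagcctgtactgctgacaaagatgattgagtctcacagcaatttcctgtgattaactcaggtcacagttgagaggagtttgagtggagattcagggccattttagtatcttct
KLRC1, window at chr12:10453328-10453627, minus strand: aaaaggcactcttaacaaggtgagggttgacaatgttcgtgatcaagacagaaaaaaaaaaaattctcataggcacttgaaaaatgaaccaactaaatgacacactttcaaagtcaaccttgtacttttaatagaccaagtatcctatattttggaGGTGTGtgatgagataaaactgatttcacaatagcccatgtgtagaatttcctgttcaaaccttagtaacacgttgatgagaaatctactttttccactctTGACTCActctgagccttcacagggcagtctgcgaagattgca
KLRC3, window at chr12:10420546-10420845, minus strand: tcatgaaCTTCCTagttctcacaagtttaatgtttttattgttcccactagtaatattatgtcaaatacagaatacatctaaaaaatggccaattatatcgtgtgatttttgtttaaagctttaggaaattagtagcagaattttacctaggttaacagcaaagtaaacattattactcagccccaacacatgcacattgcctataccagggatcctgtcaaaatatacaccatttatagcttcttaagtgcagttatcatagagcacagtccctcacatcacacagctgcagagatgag
KLRC4, window at chr12:10409708-10410007, minus strand: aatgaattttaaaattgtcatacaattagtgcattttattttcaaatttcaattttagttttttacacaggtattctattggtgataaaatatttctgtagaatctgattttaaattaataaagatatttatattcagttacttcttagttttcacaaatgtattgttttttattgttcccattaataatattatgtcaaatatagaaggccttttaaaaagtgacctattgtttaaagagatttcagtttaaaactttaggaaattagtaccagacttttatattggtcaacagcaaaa
KLRG1, window at chr12:8949794-8950093, plus strand: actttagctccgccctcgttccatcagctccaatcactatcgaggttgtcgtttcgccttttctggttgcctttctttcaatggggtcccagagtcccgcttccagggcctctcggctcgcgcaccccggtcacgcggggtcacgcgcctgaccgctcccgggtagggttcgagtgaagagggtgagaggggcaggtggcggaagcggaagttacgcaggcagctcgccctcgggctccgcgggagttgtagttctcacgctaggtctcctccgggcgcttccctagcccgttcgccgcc

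The first KLRC1 window held none of the 4 motifs, and the one at chr12:10453328-10453627 held 1 T-box match and 1 AP-1 match. The KLRC3 window held 1 ETS match and the KLRC4 window none. The remaining windows of KLRC1 and KLRB1 held 1 ETS match each, and a later start of KLRG1 held 1 AP-1 match. No RUNX match was found in the 8 windows. The windows differed widely in composition, from 22.3% G and C in KLRC4 to 64.3% in the first window of KLRG1. KLRC3 and KLRC4 were the most alike pair of windows from different genes, with 186 of 337 aligned columns identical (55.2%), and the other pairs reached down to 41.9%. These matches describe the letters of the windows and say nothing about binding.

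KLRC1, which encodes the inhibitory chain NKG2A (Gene ID 3821, chr12:10442264-10454685, minus strand, GRCh38), was the KLR gene with the highest level in FR1 and FR2. The CTRL libraries held 2, 4 and 2 counts and the hnCD16 libraries 5, 1 and 4. The FR1 libraries held 2925, 3193 and 2861 counts and the FR2 libraries 3058, 3004 and 3082. All 6 FR libraries lay far above all 6 others, and the ranges of FR1 and FR2 overlapped. In CPM (counts scaled by TMM library sizes), KLRC1 was 172 ± 10.9 in FR1 and 172 ± 3.37 in FR2 (SD, n = 3). Summed over the groups, the ratio of FR1 to hnCD16 was 960 (95% counting interval 522 to 2004) and that of FR1 to CTRL 1285 (652 to 2978). The ratios for FR2 were 961 and 1286. Intervals of this kind cover counting error only. By edgeR's quasi-likelihood test with Benjamini-Hochberg adjustment, the log2 fold change of FR1 against hnCD16 was 9.85 (SE 0.136, adjusted p = 6.91e-20) and that against CTRL 10.26 (SE 0.139, adjusted p = 5.51e-20).

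**Figure D1:**
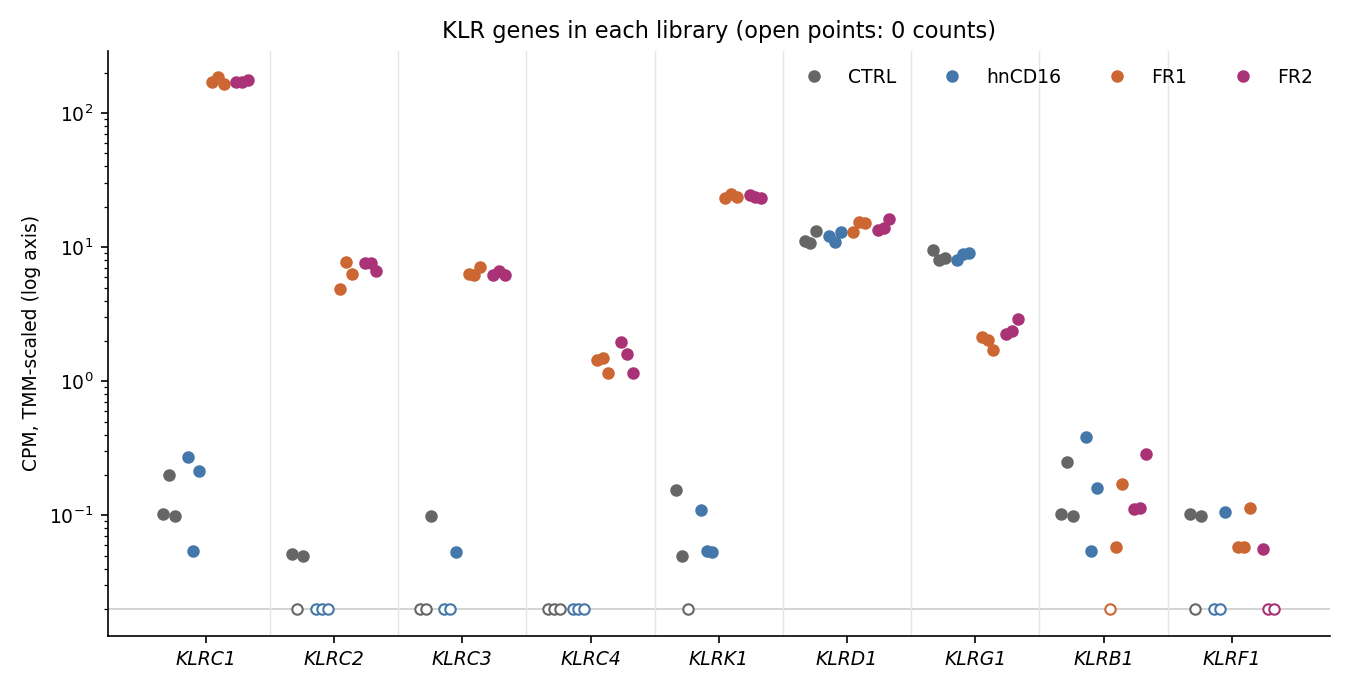
CPM of the 9 KLR genes in each of the 12 libraries, on a log axis, with open points at the bottom for libraries with 0 counts. For KLRC1, KLRC2, KLRC3, KLRC4 and KLRK1 all 6 FR libraries lie above all CTRL and hnCD16 libraries, for KLRG1 all 6 lie below, and KLRB1 and KLRF1 stayed at 0 to 7 counts per library throughout.

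The genes of the activating chains NKG2C and NKG2E rose as well, from fewer counts. KLRC2 (Gene ID 3822, chr12:10426854-10442300) had 1, 0 and 1 counts in CTRL and 0 in each hnCD16 library. It had 84, 134 and 110 counts in FR1 and 137, 134 and 116 in FR2. The FR libraries thus lay above all others, and their 2 groups overlapped. Taking 3 counts over the 3 hnCD16 libraries as the floor, FR1 libraries had at least 117-fold higher KLRC2 than hnCD16 and FR2 libraries at least 136-fold higher, and the levels were 188 (51.6 to 1557) and 218 (59.9 to 1804) times the CTRL level. Its fitted log2 fold changes against CTRL were 7.29 (SE 0.406, edgeR adjusted p = 1.00e-10) in FR1 and 7.50 (SE 0.393, edgeR adjusted p = 4.38e-11) in FR2.

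KLRC3 (Gene ID 3823, chr12:10412315-10420595) had 0, 0 and 2 counts in CTRL and 0, 0 and 1 in hnCD16. It had 109, 107 and 124 counts in FR1 and 111, 118 and 109 in FR2, so no FR library came near the others. With 1 count in all over the hnCD16 libraries, the FR1 ratio was 364 and its interval ran from 64.8 to 14407. Against CTRL the FR1 ratio was 195 (53.5 to 1614) and the FR2 ratio 190. The log2 fold change of FR1 against CTRL was 7.34 (SE 0.362, edgeR adjusted p = 2.38e-12). This value rests on the 2 counts of CTRL replicate 3, without which it was 9.89. Likewise, the 8.04 against hnCD16 was 9.90 without hnCD16 replicate 3. The group is then at 0 counts in both cases, so these values depend on the prior count and are no bounds.

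NKG2A, NKG2C and NKG2E share the partner CD94, so their proportions were compared. KLRC1 made up 93.1% ± 0.690 of the summed counts of KLRC1, KLRC2 and KLRC3 in FR1 and 92.7% ± 0.477 in FR2 (SD, n = 3). The groups differed by 0.433 percentage points, less than the spread between libraries (exact two-sided permutation p = 0.6, where 0.1 is the smallest p that 3 against 3 libraries allow). By TPM, which corrects for length, the shares were 91.0% and 90.6% (exact permutation p = 0.7). In CTRL and hnCD16 the 3 genes had 1 to 5 counts per library together, too few for a share. The 3 sequences are similar in places. Of all 100-base stretches of its annotated transcripts, KLRC2 shared 8.16% with other genes, KLRC1 3.89% and KLRC3 2.96%, so RSEM's division of such reads makes the small genes uncertain beside KLRC1. KLRC1 and KLRC2 also overlap at their annotated ends.

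KLRK1, the NKG2D gene (Gene ID 22914, chr12:10372353-10391874, minus strand), had 3, 1 and 0 counts in CTRL and 2, 1 and 1 in hnCD16. The FR1 libraries held 404, 428 and 414 counts and the FR2 libraries 439, 415 and 403. NKG2D RNA was thus near 0 in one set of libraries and within a narrow range in the other. It reached 23.9 ± 0.723 CPM in FR1 and 23.7 ± 0.781 CPM in FR2 (SD, n = 3). The FR1 ratio was 333 to hnCD16 (130 to 1225) and 357 to CTRL (139 to 1311), and the FR2 ratios were 330 and 354. The log2 fold change of FR1 against hnCD16 was 8.25 (SE 0.209, edgeR adjusted p = 1.69e-16). Of the 4 CTRL counts, 3 were in replicate 1, and without it the log2 fold change of FR1 against CTRL went from 8.34 to 9.56.

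KLRC4 (Gene ID 8302, chr12:10407384-10409757, minus strand), the gene of the NKG2F chain, lies just upstream of KLRK1 and had 0 counts in all 6 CTRL and hnCD16 libraries. It had 25, 26 and 20 counts in FR1 and 35, 28 and 20 in FR2. Against the floor of 3 counts over a group, FR1 libraries were at least 25.3-fold higher than hnCD16 and FR2 libraries at least 29.1-fold higher, and against CTRL the bounds were 27.1-fold and 31.1-fold. KLRC4-KLRK1, a read-through transcript of both genes, was likewise at 0 in CTRL and hnCD16. It had 34, 34 and 12 counts in FR1 and 9, 7 and 27 in FR2, a log2 difference of 0.92 between the FR groups that did not pass the test (edgeR adjusted p = 0.169). The read-through shares 44.9% of the 100-base stretches of KLRC4 and 56.8% of those of KLRK1, and an antisense gene, KLRK1-AS1, matches 24.1% of those of KLRK1 on the other strand. The strand setting of the counting is not given in the sources used here, so reads of these genes cannot be fully told apart.

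KLRD1, the gene of the CD94 partner chain (Gene ID 3824, chr12:10226058-10329608, plus strand), did not follow the NKG2 genes. It had 219, 213 and 267 counts in CTRL and 224, 202 and 244 in hnCD16, with 225, 265 and 263 in FR1 and 240, 247 and 282 in FR2. Scaled, CTRL had 11.7 ± 1.39 CPM and hnCD16 12.02 ± 1.04, while FR1 had 14.5 ± 1.25 and FR2 14.5 ± 1.43 (SD, n = 3). The highest CTRL library, at 13.3 CPM, lay above the lowest FR1 library, at 13.02 CPM, so these groups overlapped. The highest hnCD16 library was at 12.96 CPM and the lowest FR2 library at 13.4 CPM. In CPM, FR2 thus did not overlap CTRL or hnCD16, nor did FR1 overlap hnCD16. By TPM, FR2 (2.96 to 4.08) overlapped CTRL (2.64 to 3.27), and FR1 (2.70 to 3.96) overlapped hnCD16 (2.49 to 2.89). Only FR2 and hnCD16 stayed apart by both measures. Against hnCD16, the log2 fold change was 0.27 in FR1 (SE 0.105, edgeR adjusted p = 0.0279) and 0.27 in FR2 (SE 0.104, edgeR adjusted p = 0.0248). Against CTRL it was 0.30 (edgeR adjusted p = 0.0132) and 0.31 (edgeR adjusted p = 0.0116). These changes passed the p threshold and missed the fold threshold of 1 on the log2 scale. CD94 RNA was therefore present in libraries with almost no NKG2 RNA and changed little where NKG2 RNA was high. In the FR libraries, KLRD1 had 0.0143 ± 0.00275 TPM per TPM of KLRC1, KLRC2 and KLRC3 in FR1 and 0.0141 ± 0.00230 in FR2 (SD, n = 3), a difference well within the spread (exact two-sided permutation p = 0.9).

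KLRG1 (Gene ID 10219, chr12:8950044-9010760, plus strand), the inhibitory cadherin receptor, was the 1 KLR gene that fell. The CTRL libraries held 185, 159 and 166 counts and the hnCD16 libraries 148, 165 and 170. The FR1 libraries held 37, 35 and 30 counts and the FR2 libraries 40, 42 and 51. Every FR library was below every CTRL and hnCD16 library. CTRL had 8.56 ± 0.791 CPM of KLRG1 and hnCD16 8.66 ± 0.535, while FR1 had 1.96 ± 0.221 and FR2 2.51 ± 0.359 (SD, n = 3). In FR1 it was lower by a factor of 4.43 than in hnCD16 (3.57 to 5.54) and 4.37 than in CTRL (3.52 to 5.45). In FR2 the factors were 3.46 (2.85 to 4.22) and 3.41 (2.81 to 4.16). Against hnCD16, the log2 fold change was -2.14 in FR1 (SE 0.140, edgeR adjusted p = 1.37e-10) and -1.79 in FR2 (SE 0.133, edgeR adjusted p = 7.96e-10).

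The genes of NKR-P1A and NKp80 were close to absent in every group. KLRB1 (Gene ID 3820, chr12:9594551-9607916, minus strand) had 2, 5 and 2 counts in CTRL and 7, 1 and 3 in hnCD16, against 0, 1 and 3 in FR1 and 2, 2 and 5 in FR2. KLRF1 (Gene ID 51348, chr12:9827481-9845007, plus strand) had 2, 0 and 2 counts in CTRL and 0, 0 and 2 in hnCD16, against 1, 1 and 2 in FR1 and 1, 0 and 0 in FR2. Neither passed the filter on low counts, and a difference between groups was not detectable at this depth. The ratio of FR1 to hnCD16 for KLRB1, for example, was 0.389, with a counting interval from 0.0903 to 1.31. Among the KLR relatives outside the 9 genes, KLRF2 was called higher in all 4 comparisons of an FR group with CTRL or hnCD16, at 29 counts over the FR1 libraries and 33 over the FR2 libraries against 3 in CTRL and 2 in hnCD16. KLRG2 had 4 to 13 counts per group and was not tested.

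Of the 9 genes, 7 passed the filter. Genes were called where the log2 fold change reached 1 in size and the adjusted p did not exceed 0.05. By this rule 6 of these 7 were called in each comparison of an FR group with CTRL or hnCD16, 5 higher (KLRC1, KLRC2, KLRC3, KLRC4 and KLRK1) and 1 lower (KLRG1). The background was high. Of all 13657 genes tested, 38.3% were called in FR1 against hnCD16, 39.5% in FR2 against hnCD16, 38.0% in FR1 against CTRL and 38.2% in FR2 against CTRL. In the same order, 18.7%, 19.6%, 18.3% and 18.7% of all genes were called higher, and 19.6%, 19.8%, 19.8% and 19.6% lower. The 5 genes called higher passed the filter only through the FR libraries, so that they differed follows in part from the filter, and their number is given as a description. The 4 comparisons share libraries and are not independent of each other.

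**Figure D2:**
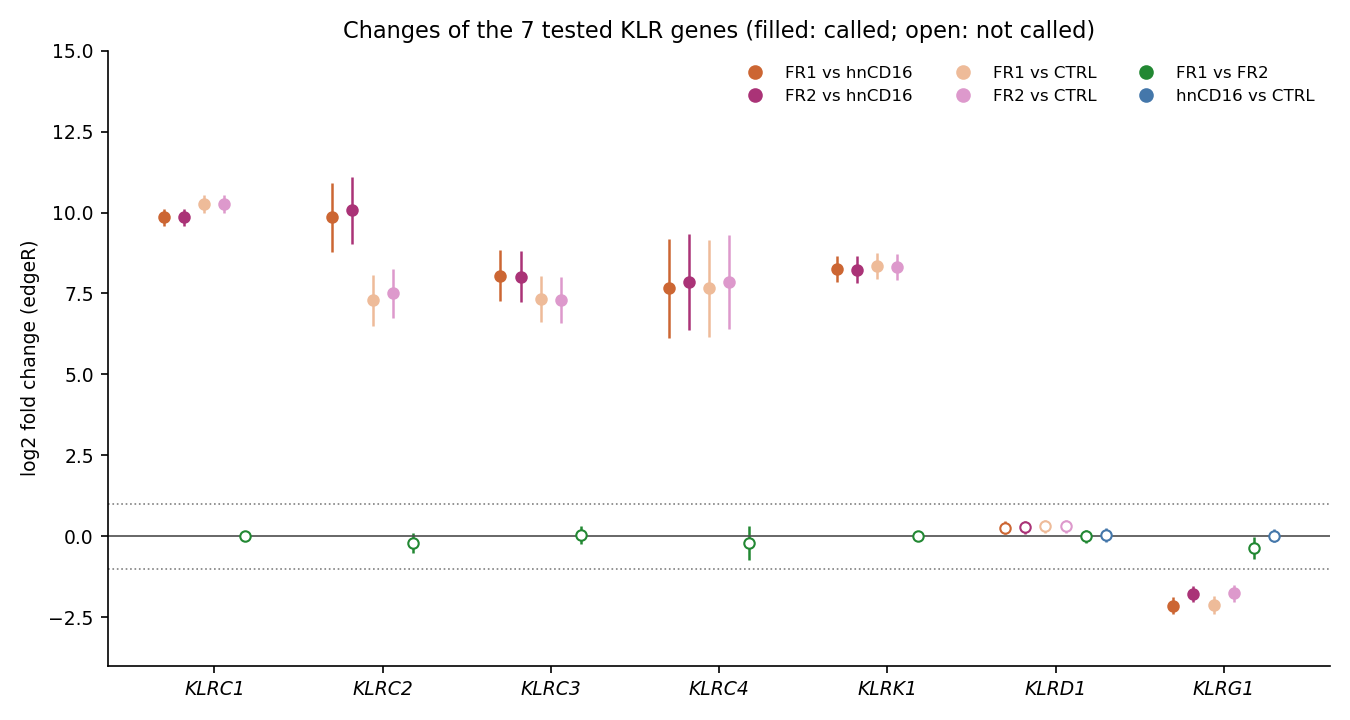
Log2 fold changes (edgeR) of the KLR genes tested, with intervals of 1.96 SE, for each comparison (hnCD16 against CTRL for KLRD1 and KLRG1 only). Filled points were called and dotted lines mark the fold threshold. Against CTRL and hnCD16, intervals of genes with few counts there understate the error. KLRC1, KLRC2, KLRC3, KLRC4 and KLRK1 lay at 7.29 or higher and KLRG1 at -1.77 or lower in the comparisons of FR1 and FR2 with hnCD16 and CTRL, while KLRD1 stayed between 0.27 and 0.31; values of genes at 0 counts in a group (KLRC4, and KLRC2 against hnCD16) depend on the prior count and are no bounds.

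The fusion receptors differ by the 2B4 domain, which FR1 has and FR2 lacks. Their libraries also differed in FCGR3A, at 559 to 567 counts in FR1 and 1012 to 1132 in FR2. The domain and the level of the construct cannot be told apart. Between FR1 and FR2, 0 of the 7 genes were called by edgeR, and 0 had an unadjusted p under 0.05, against 1.93% of all genes tested that were called. DESeq2 and limma on log2(TPM + 1) also called 0, and limma had an unadjusted p under 0.05 for 1 gene. The log2 difference of FR1 from FR2 (interval of 1.96 SE) was -0.00 for KLRC1 (-0.12 to 0.12), 0.01 for KLRK1 (-0.14 to 0.17) and -0.01 for KLRD1 (-0.21 to 0.20). Differences of more than 0.21 in size lay outside these 3 intervals. Wider intervals held for the genes with fewer counts, with 0.03 for KLRC3 (-0.25 to 0.32), -0.21 for KLRC2 (-0.52 to 0.10) and -0.20 for KLRC4 (-0.72 to 0.33). KLRG1 had the largest difference in size, -0.36 (-0.70 to -0.01, edgeR adjusted p = 0.130), with FR1 below FR2 in every library and the call not made.

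Between hnCD16 and CTRL, edgeR likewise called 0 of the 7 genes, 0 had an unadjusted p under 0.05, and DESeq2 and limma on log2(TPM + 1) called 0. Of all genes tested, 0.527% were called by edgeR. Limma on log2(TPM + 0.1) also called 0 of the 7 and had an unadjusted p under 0.05 for 1 gene. Folds are given for the 2 genes with more than a few counts in these groups. KLRD1 differed by 0.04 on the log2 scale (-0.17 to 0.24) and KLRG1 by 0.02 (-0.19 to 0.23), and neither estimate kept its sign when library size alone was used for scaling.

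By TPM, the order of the KLR genes turned over between the groups. In CTRL and hnCD16, KLRG1 led at 9.11 ± 0.375 and 8.30 ± 0.972 TPM (SD, n = 3), followed by KLRD1 at 2.86 ± 0.358 and 2.66 ± 0.208. The other 7 genes were at 0.240 TPM or less, and their neighbours in the order had overlapping ranges. In FR1 the order was KLRC1 at 214 ± 13.04 TPM, KLRK1 at 26.3 ± 0.854, KLRC3 at 12.2 ± 1.10 and KLRC2 at 8.89 ± 2.08. KLRD1 at 3.36 ± 0.632 and KLRC4 at 2.60 ± 0.319 came next, with overlapping ranges, before KLRG1 at 1.89 ± 0.159. In FR2 the first 4 genes kept this order, at 216 ± 6.52, 26.3 ± 1.11, 11.8 ± 0.309 and 10.4 ± 0.832 TPM, with no overlap between neighbours. KLRD1, KLRC4 and KLRG1 followed at 3.36 ± 0.625, 3.02 ± 0.8501 and 2.59 ± 0.571 TPM, and each overlapped the next. KLRF1 and KLRB1 closed the order in both FR groups at 0.200 TPM or less. The 9 genes together summed to 12.7 ± 0.576 TPM in CTRL and 11.6 ± 1.11 in hnCD16, against 269 ± 15.2 in FR1 and 273 ± 6.72 in FR2. KLRC1 alone was 79.4% ± 0.980 of this sum in FR1 and 78.9% ± 0.644 in FR2 (SD, n = 3).

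**Figure D3:**
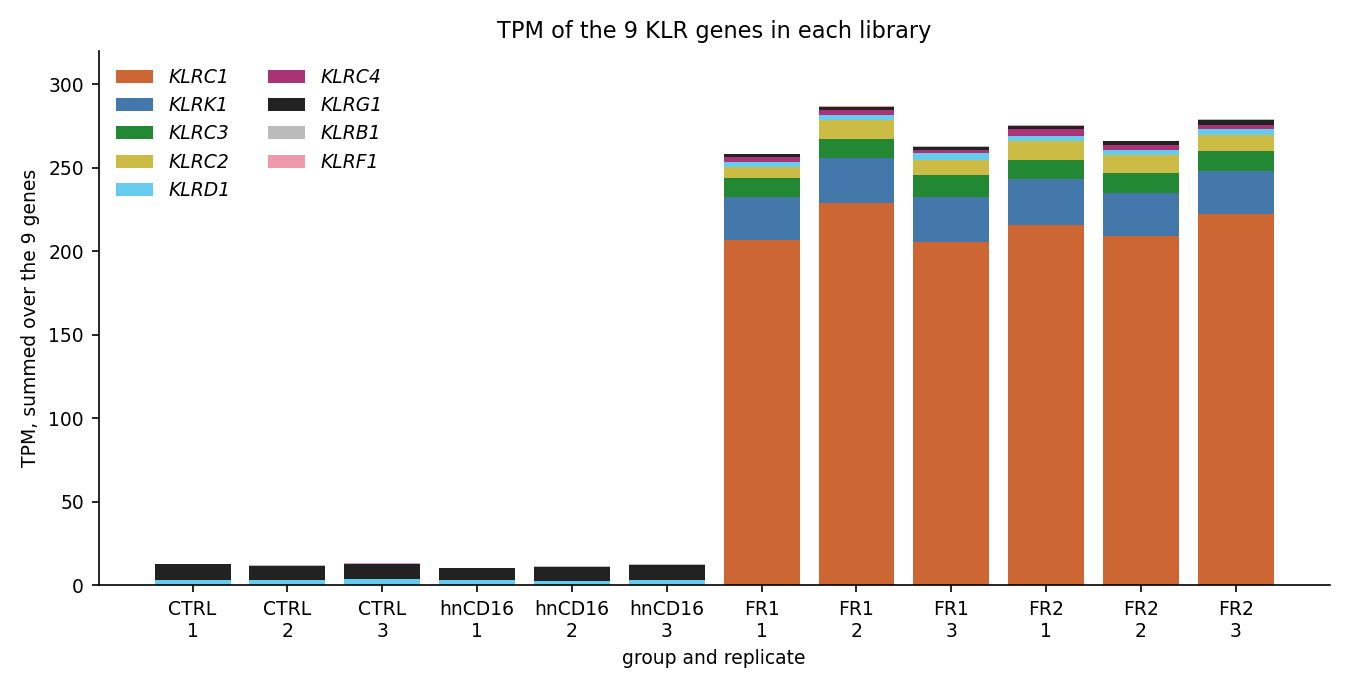
Summed TPM of the 9 KLR genes in each library, stacked by gene, with the libraries in their groups. The bars of FR1 and FR2 reach 258 to 287 TPM and are mostly KLRC1, while those of CTRL and hnCD16 stay at 10.7 to 13.1 TPM and are mostly KLRG1 and KLRD1.

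In the transcript table, 18 of the 34 KLR transcripts passed the filter. Of these, 9 were called higher and 0 lower in each comparison of an FR group with CTRL or hnCD16, where 14.8%, 15.3%, 14.7% and 14.8% of all transcripts tested were called in either direction (FR1 and FR2 against hnCD16, then against CTRL) and 7.52%, 7.78%, 7.39% and 7.45% were called higher. The 9 were the 4 transcripts of KLRC1, both of KLRC3 and the single ones of KLRC2, KLRC4 and KLRK1. They had 0 to 4 counts per CTRL or hnCD16 library and passed the filter only through the FR libraries, so their number too is a description. Between the FR groups and between hnCD16 and CTRL, edgeR called 0 of the 18, against 0.254% and 0.162% of all transcripts. Of these 18, 0 and 1 had an unadjusted p under 0.05, respectively, and limma on log2(TPM + 1) also called 0 in both. Estimated transcript counts depend on how RSEM divides shared reads, so the shares below vary between libraries of a group.

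KLRC1 was made up mainly of NM_002259 and NM_007328, both curated RefSeq transcripts. NM_002259 was 46.9% ± 5.79 of the gene's counts in FR1 and 48.6% ± 2.75 in FR2, and NM_007328 was 40.5% ± 4.89 and 39.3% ± 3.22 (SD, n = 3). NM_001304448 added 7.55% and 7.62%, and XM_024448973 added 4.997% and 4.48%. The ranges of FR1 and FR2 overlapped for all 4. For KLRC3, NM_002261 was 64.0% ± 4.37 in FR1 and 69.0% ± 11.2 in FR2, and NM_007333 was the rest. Of the 6 tested KLRD1 transcripts, edgeR called 0 in the FR comparisons. The most abundant, NM_001351060, was 30.7% ± 1.78 of the gene in CTRL and 30.8% ± 2.62 in hnCD16, against 35.2% ± 3.53 in FR1 and 35.7% ± 3.85 in FR2, with overlapping ranges.

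Within KLRG1, edgeR called 0 of the 3 tested transcripts in the FR comparisons. NM_001329101 had the largest mean share of the estimated counts in CTRL and hnCD16, but not in every library. NM_001329103 held more in CTRL replicate 2 (50.6% against 46.9%) and in hnCD16 replicate 3 (42.4% against 39.9%). NM_001329101 had 126, 75 and 148 counts in CTRL and 94, 128 and 68 in hnCD16. It had 13, 0 and 0 counts in FR1 and 11, 4 and 0 in FR2, so the groups did not overlap. Its share of KLRG1 was 68.0% ± 21.2 in CTRL and 60.5% ± 19.2 in hnCD16, against 11.9% ± 20.7 in FR1 and 12.3% ± 13.4 in FR2 (SD, n = 3). The log2 fold change of FR1 against hnCD16 was -4.35, with an unadjusted p of 0.0317 in edgeR and an adjusted p of 0.117, while limma on log2(TPM + 1) called this transcript lower (-2.29, adjusted p = 0.000256). NM_001329103, by contrast, ranged from 0% to 50.6% of the gene in CTRL and from 32.4% to 84.5% in FR1, which overlap.

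**Figure D4:**
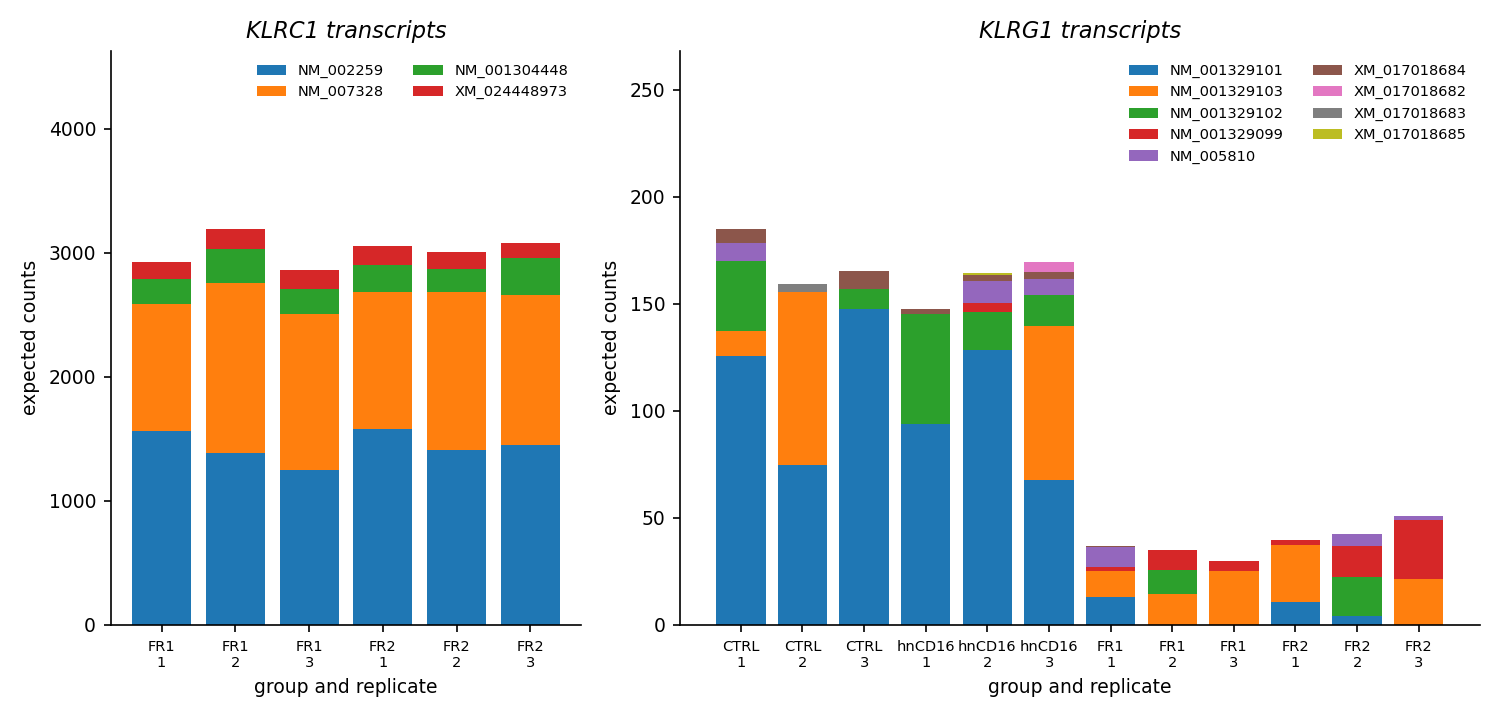
Estimated counts of the KLRC1 transcripts in the FR1 and FR2 libraries and of the KLRG1 transcripts in all 12 libraries, stacked by transcript. NM_002259 and NM_007328 make up most of KLRC1 in all 6 FR libraries, and the NM_001329101 portion of KLRG1 falls from 68 to 148 counts in CTRL and hnCD16 to 0 to 13 in FR1 and FR2.

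The adaptors that KLR receptors need were compared next. HCST encodes DAP10, the partner of NKG2D, and measured 39.0 ± 2.04 TPM in CTRL and 38.1 ± 2.44 in hnCD16, against 53.2 ± 1.13 in FR1 and 59.1 ± 2.70 in FR2 (SD, n = 3). Its log2 fold changes against hnCD16 were 0.72 in FR1 and 0.87 in FR2, under the fold threshold. Both fusion receptors carry DAP10 and CD3ζ sequence, so RNA of the construct and of the cell cannot be told apart in HCST or in CD247, the CD3ζ gene, which had 0.34 and 0.55. TYROBP, the gene of DAP12 on which NKG2C and NKG2E rely, was not tested and had 15 counts over the CTRL libraries, 11 over hnCD16 and 0 over each FR group. The FR libraries thus held KLRC2 and KLRC3 RNA with no TYROBP count, where 3 counts over a group was the limit that a count of 0 allows. FCER1G, the Fc receptor γ adaptor gene, had -0.51 in FR1 and -1.07 in FR2 against hnCD16, of which the second was called (edgeR adjusted p = 0.0253).

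A list of signaling partners of these receptors had 24 tested genes, among them the adaptor genes HCST, CD247 and FCER1G given above. Of the 24, 5 were called higher and 3 lower in FR1 against hnCD16, a share of 33.3% beside 38.3% of all genes. In FR2 against hnCD16 these were 6 and 5 (45.8% beside 39.5%), in both FR groups against CTRL 5 and 4 (37.5% beside 38.0% in FR1 and 38.2% in FR2), and edgeR called 0 of them between hnCD16 and CTRL. Medians of the list were 0.36 and 0.40 against hnCD16 and 0.42 and 0.27 against CTRL. Those called higher in FR1 against hnCD16 were the kinase gene FYN (2.46), the adaptor genes GRB2 (1.23) and CRK (2.70), PIK3CD (4.52), a catalytic subunit of PI3 kinase, and PLCG2 (2.90), a phospholipase. Those called lower were the kinase gene LCK (-10.57) and the exchange factor genes VAV2 (-9.46) and VAV3 (-2.68). PTPN6 (SHP-1) and PTPN11 (SHP-2) encode the phosphatases that bind NKG2A. PTPN6 fell in FR2 against hnCD16 (-1.12) and against CTRL in FR1 (-1.48) and FR2 (-1.62), and its -0.98 in FR1 against hnCD16 missed the fold threshold. PTPN11 had 0.38 and 0.16 against hnCD16 and INPP5D (SHIP-1) 0.16 and 0.13, and neither was called.

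The ligand genes were measured in the same cells. Of 13 tested, 3 were called higher and 4 lower in FR1 against hnCD16, and 4 higher and 4 lower in each of the other comparisons of an FR group with CTRL or hnCD16. These are 53.8% and 61.5% of the list, beside 38.0% to 39.5% of all genes, and nothing particular to the list is read from them. HLA-E, the ligand of CD94/NKG2, measured 24.4 ± 1.75 TPM in CTRL and 19.4 ± 1.09 in hnCD16, against 240 ± 13.7 in FR1 and 283 ± 5.63 in FR2 (SD, n = 3). It rose by 3.70 and 3.92 on the log2 scale in FR1 and FR2 against hnCD16. Reads of HLA-E can be shared with other HLA class I genes, which makes its level uncertain. CLEC2D (LLT1) rose by 2.50 and 2.56 and CLEC2B (AICL) by 1.61 and 1.53, while the genes of their receptors, KLRB1 and KLRF1, stayed at 0 to 7 counts per library.

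The ligands of NKG2D did not move together. Against hnCD16, MICA fell, with log2 fold changes of -1.21 in FR1 and -1.01 in FR2, as did ULBP1, with -2.28 and -1.88, while MICB had 0.55 and 0.57 and was not called. ULBP2 was called higher in FR2 (1.02), and its 0.99 in FR1 was under the fold threshold. ULBP3, RAET1E and RAET1G were called in neither comparison, at 9 to 73 counts per library. Of the cadherin ligands of KLRG1, CDH2 had 3489 counts over the CTRL libraries and 3752 over hnCD16, against 0 in FR1 and 4 in FR2, and CDH4 had 3574 and 2600, against 6 and 10. Both were called lower in all 4 comparisons, and CDH1, at 8 to 25 counts per library, was not.

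The positions of the KLR genes on chromosome 12 allowed a view of their neighbours. The table held 37 other genes whose ends lay within 500 kb of a member, of which 26 were tested. In FR1 against hnCD16, 6 of these were called higher and 12 lower, with a median log2 fold change of -0.84, and in FR2 against hnCD16, 5 were higher and 13 lower, with a median of -1.21. In both comparisons 69.2% were called, beside 38.3% and 39.5% of all genes, whose medians were -0.01 and -0.03. The neighbours called higher include the KLR relative KLRF2 and the read-through KLRC4-KLRK1, which shares sequence with KLRC4 and KLRK1. KLRC1, KLRC2, KLRC3, KLRC4 and KLRK1 lie next to each other, and between them only the read-through KLRC4-KLRK1 was also in the table. The rise did not extend to the genes directly on either side. Toward the centromere, EIF2S3B had -0.01 in FR1 and 0.24 in FR2 against hnCD16, and MAGOHB had -0.97 and -1.51, of which the second was called. On the other side lay KLRD1, and beyond it GABARAPL1, an autophagy gene, rose by 1.77 and 1.82 and TMEM52B had -0.27 and -0.18. Near KLRG1, its direct neighbour M6PR had -0.72 and -0.91 and was not called, while PHC1 had -9.23 and -10.55 and A2M -8.27 and -6.36, both called lower. PZP rose in FR1 (1.22) and was not called in FR2 (0.82). CD69, an activation marker between KLRB1 and KLRF1, fell, with -5.19 and -5.44.

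**Figure D5:**
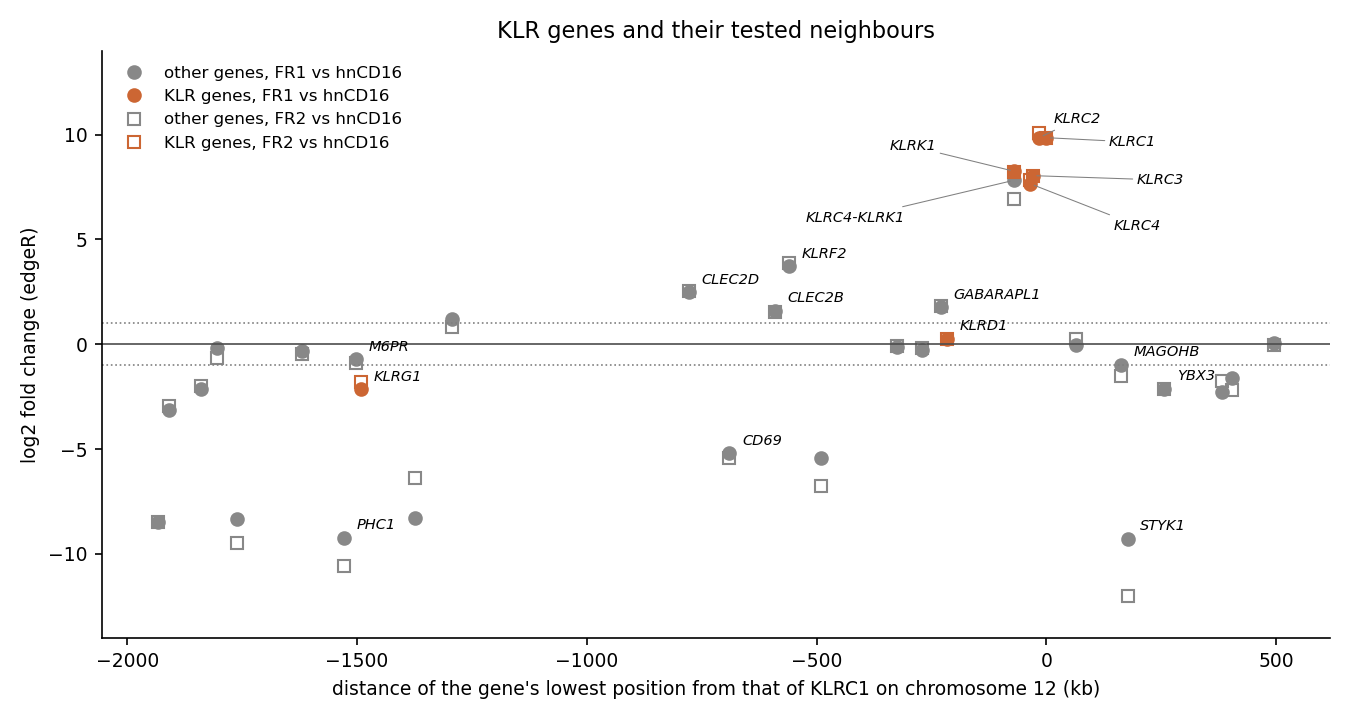
Log2 fold change against hnCD16 (FR1 circles, FR2 open squares) of tested KLR genes and their neighbours, by the distance in kb of each gene's lowest position from that of KLRC1. The 5 NKG2 and NKG2D genes at -69.9 to 0 kb stand between 7.65 and 10.07, while EIF2S3B and MAGOHB on one side and KLRD1, TMEM52B and GABARAPL1 on the other lie between -1.51 and 1.82; values of genes at 0 counts in a group are no bounds.

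Genes with the pattern most like each KLR gene were found by Euclidean distance between centred log2(CPM + 1) values over the 12 libraries, where 0 would be an identical pattern. The 3 nearest to KLRC1 were CYRIA (0.350), METRNL (0.408) and PDLIM1 (0.467). For KLRK1 they were UPP1 (0.217), PIK3AP1 (0.263) and NLRC5 (0.267), for KLRC2 KIAA0040 (0.371), KLF11 (0.446) and RARG (0.494), and for KLRC3 APOBEC3C (0.259), HOXB6 (0.330) and TPST2 (0.356). KLRC4 was nearest to SLC38A4 (0.322) and HSF2BP (0.327). The nearest to KLRG1 were ABLIM1 (0.353), METTL26 (0.389) and ERLIN1 (0.395), and to KLRD1 CATSPER2 (0.229), ANKRD10 (0.271) and DISP2 (0.274). The libraries fall into 2 sets that differ in 38.0% to 39.5% of all genes tested, so many genes share these patterns, and the distances are given as a description.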

How the data were processed

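By the study's account, RNA of unstimulated YT cells was sequenced in 12 libraries, 3 each of CTRL, hnCD16, FR1 and FR2. The libraries were grouped by the sample labels. Per the study's methods and processing notes, the authors cleaned the reads (SOAPnuke), aligned them (HISAT2 2.1.0, GRCh38.p13) and deposited RSEM 1.3.1 expected counts, with no normalization, and TPM values. Bowtie2 2.3.4.3 and DESeq2 1.4.5 are also named. Strand settings are not given in the sources used here.

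Expected counts were rounded and tested with edgeR 4.0.16 (R 4.3.3), by the quasi-likelihood test in 1 fit of all groups, with TMM normalization and filterByExpr by group. P-values were adjusted by Benjamini-Hochberg over 13657 genes or 56640 transcripts. Genes were called where the log2 fold change reached 1 in size and the adjusted p did not exceed 0.05. The edgeR step was tested on simulated data. The libraries held 17714566 to 18729019 counts. For a gene at 0 counts in a group, a fixed floor of 3 counts over the group was used. Bounds against this floor take the counts of the other group as exact and carry no interval. Ratios of summed counts carry exact 95% binomial intervals. SEs are the size of the log2 fold change divided by the square root of the F statistic of the test. Shares were compared by exact permutation tests. Replicate libraries of a group differed by more than sampling noise, with a chi-square per gene of 2.06 to 12.3.

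The members and gene lists were chosen with earlier results of these data known. The text names all members, their transcripts, adaptor, phosphatase and ligand genes, the nearest neighbours in the table and the 3 genes of most similar pattern, leaving out Y-linked ones. Other genes named were chosen after their values were seen. Alternatives were limma 3.58.1 with a pseudocount of 1 or 0.1 on log2 TPM, DESeq2 1.42.0, other scaling and filters, the replicate block, no fold threshold, 2-group fits, summed NKG2 genes and leaving out each library. Gene positions are from GENCODE on GRCh38 and promoter sequences from RefSeq on GRCh38.p14. Shared sequence was counted as stretches of 100 bases. FPKM and averaged columns were not used here. Values of some single genes are not reported here. Figures were drawn with matplotlib 3.10.9.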

Additional observations from a re-analysis of the deposited data

How the results depend on the processing

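In every comparison of an FR group with CTRL or hnCD16, the same 6 genes were called under every alternative but the summing of KLRC1, KLRC2, KLRC3, KLRC4 and KLRK1, which leaves 2 called in each of the 4 comparisons, of 3 features tested, with the sum at 9.58 against hnCD16 in FR1. Without a fold threshold edgeR also called KLRD1, at 0.27 in FR1 and 0.27 in FR2 against hnCD16 and at 0.30 and 0.31 against CTRL. Over 17 settings its log2 fold change in these comparisons ran from 0.11 to 0.43. Limma with either pseudocount had an unadjusted p under 0.05 for only 6 of the 7 genes in each of these comparisons, and KLRD1 was not among them. Folds of genes near 0 in CTRL and hnCD16 were unstable in size: without CTRL replicate 3, KLRC3 in FR1 against CTRL went from 7.34 to 9.89 and in FR2 from 7.31 to 9.88; without hnCD16 replicate 3, it went from 8.04 to 9.90 and from 8.01 to 9.87 against hnCD16; and without CTRL replicate 1, KLRK1 against CTRL went from 8.34 to 9.56 and from 8.33 to 9.54. On log2(TPM + 1), which understates changes of low genes, limma gave the lowest values of KLRC1, KLRC2, KLRC3, KLRC4 and KLRK1 in these comparisons, for example 3.62 for KLRC3 and 1.84 for KLRC4 in FR1 against CTRL. Signs turned only among differences that were not called. Of hnCD16 against CTRL, KLRD1 was -0.076 with library size only, -0.074 with limma on log2(TPM + 1) and -0.097 on log2(TPM + 0.1), and KLRG1 was -0.093, -0.12 and -0.14, and -0.0083 in the fit of these 2 groups. Of FR1 against FR2, KLRC1 was 0.00098 in the fit of these groups, KLRC3 -0.029 with library size only, and KLRK1 -0.0056 with RLE, -0.0497 with library size only and -0.0046 with DESeq2. Leaving out 1 library gave -0.057 to 0.12 for KLRD1 and -0.0598 to 0.096 for KLRG1 (hnCD16 against CTRL), and -0.052 to 0.038 for KLRC1, -0.028 to 0.072 for KLRC3, -0.083 to 0.077 for KLRD1 and -0.011 to 0.022 for KLRK1 (FR1 against FR2). The cause was not tested. With library size only, the median log2 fold change of all genes moved from -0.03 to -0.22 in FR1 against CTRL, from -0.04 to -0.17 in FR2 against CTRL and from -0.01 to -0.12 in hnCD16 against CTRL.

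Replicate numbers are in the labels, and no comparison had every same-numbered pair correlated over 0.1, with mean correlations of -0.0298 to 0.131 over the 6 comparisons. In hnCD16 against CTRL, 2 of the 3 pairs were over 0.1 (0.0623 to 0.171), and there and in FR2 against hnCD16 each sample correlated best with its own number, a hint from the data and not from the design. With the replicate number as a block, 6 members and 9 transcripts were called in each comparison of an FR group with CTRL or hnCD16 and 0 in the others, so the block moved no count. Counts of 0 to 7 per library limit KLRB1 and KLRF1 and the ratios of the NKG2 genes, whose denominators rest on 0 to 10 counts a group.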
